A study of Mus musculus with 18 samples.

Results

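The mRNAs of all 23 selenoprotein genes in the deposited tables were compared between livers that had lost Secisbp2 in hepatocytes and livers of wild type littermates. The members were the 23 genes of the RNA-seq table, which holds no other gene, and the samples were 4 of the series' 18, namely 2 Secisbp2 knockout and 2 Secisbp2 wild type RNA-seq libraries. The knockouts carried the genotype Alb-Cre; Secisbp2fl/fl, in which the albumin promoter drives Cre in hepatocytes, and the controls carried wild type alleles. All mice were males of 5 to 8 weeks. Each sample was a whole liver, so the other cells of the liver kept Secisbp2, and fewer cells of a type and less RNA per cell cannot be told apart. A second knockout, Alb-Cre; Trspfl/fl, with 2 libraries, and its own wild type littermates, with 3 libraries, entered the same fit and serve below as a comparison. The labels state 3 mice for each background and do not say how libraries relate to mice, so that p-values measure the spread between these libraries.

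Selenoproteins carry selenocysteine, which is inserted at a UGA codon that would otherwise end translation. The insertion needs the SECIS element, a hairpin in the 3' untranslated region of each selenoprotein mRNA, the protein SECISBP2 that binds it, and a transfer RNA encoded by Trsp. An mRNA whose UGA is read as a stop codon can be a target of nonsense-mediated decay, and selenoprotein mRNAs are known to differ in how strongly they follow the supply of selenium. Liver makes most of the selenoprotein P in plasma and holds much cytosolic glutathione peroxidase. Secisbp2 itself was not among the genes of the table, so its loss was not analysed here.

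The promoters of 4 genes are shown because their genes stand at the ends of the range of change: Gpx1 and Dio1 had the largest falls, and Txnrd1 and Selenoo were the most abundant of the mRNAs that rose. Each run gives the 250 bases before a RefSeq start site on GRCm38.p6, 5' to 3' on the gene's strand. Capitals mark matches, on either strand, to TGACNNNGC, the core of the antioxidant response element, to TATAAA, the TATA box, or to CCAAT, the CCAAT box.
Gpx1, chr9:108338830-108339079, plus strand: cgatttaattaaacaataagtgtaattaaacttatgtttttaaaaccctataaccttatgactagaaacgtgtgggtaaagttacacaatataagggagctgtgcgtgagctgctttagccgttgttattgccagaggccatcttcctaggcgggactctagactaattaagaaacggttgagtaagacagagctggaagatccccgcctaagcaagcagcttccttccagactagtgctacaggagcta
Dio1, chr4:107307169-107307418, minus strand: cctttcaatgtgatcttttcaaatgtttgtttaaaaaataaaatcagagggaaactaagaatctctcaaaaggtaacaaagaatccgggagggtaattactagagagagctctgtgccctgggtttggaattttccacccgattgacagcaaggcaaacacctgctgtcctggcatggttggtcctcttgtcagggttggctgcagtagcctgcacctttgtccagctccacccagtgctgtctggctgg
Txnrd1, chr10:82858956-82859205, plus strand: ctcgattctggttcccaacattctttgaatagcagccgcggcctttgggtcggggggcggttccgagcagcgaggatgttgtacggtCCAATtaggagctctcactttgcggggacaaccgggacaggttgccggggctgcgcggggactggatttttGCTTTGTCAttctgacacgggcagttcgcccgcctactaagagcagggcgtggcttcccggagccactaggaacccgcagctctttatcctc
Selenoo, chr15:89088788-89089037, plus strand: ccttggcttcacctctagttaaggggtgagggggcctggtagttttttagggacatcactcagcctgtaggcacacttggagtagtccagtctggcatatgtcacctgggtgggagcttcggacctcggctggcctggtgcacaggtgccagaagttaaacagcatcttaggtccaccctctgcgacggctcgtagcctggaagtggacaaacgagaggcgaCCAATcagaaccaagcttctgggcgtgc
Txnrd1 has 3 RefSeq windows, and only the printed one held a match to the antioxidant response element. All 23 genes had a window, 30 windows in all. TGACNNNGC was found in the windows of 2 genes, Txnrd1 and Selenok, and in 6.67% of the 30 windows against 10.2% of all 32851 windows of the table. TATAAA was found in 23.3% of the members' windows against 12.4% of all, and CCAAT in 46.7% against 33.8%. These matches describe the letters of the windows, and the mRNA values below say nothing about the factors that may bind them.

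Values are RPKM, reads per kilobase of transcript, scaled to the mapped reads of the library, as the authors deposited them. The RPKM values are whole multiples of what 1 read is worth. Read numbers recovered from them imply mapped reads, if transcript lengths are whole numbers of bases that share no common factor. The implied mapped reads were 6522357 and 25725828 in the wild type libraries and 35060679 and 36510084 in the knockout libraries. Selenoprotein genes took 48753 and 207496 of these reads in the wild types and 87024 and 76599 in the knockouts. The wild type libraries came from a library set coded apart from that of the knockout libraries, and the genotype cannot be told apart from the library set. Between replicates the median absolute difference of log2(RPKM + 0.5) was 0.19 in the wild types and 0.14 in the knockouts.

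Selenoprotein mRNA as a whole was far lower in the knockouts. The summed RPKM of the 23 genes was 5186 and 5459 in the wild type libraries and 1616 and 1387 in the knockout libraries. The groups did not overlap, and the knockout mean of 1501 ± 162 (SD, n = 2) was 28.2% of the wild type mean of 5323 ± 194 (SD, n = 2). The exact two-sided permutation test gave p = 0.333, which is the smallest p that 2 against 2 libraries allow. As a share of the implied mapped reads, selenoprotein reads fell from 0.747% and 0.807% to 0.248% and 0.21%.

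Most of the loss lay in the 2 leading mRNAs. Gpx1 and Selenop together made up 69.0% and 72.3% of the summed RPKM in the wild types and 45.4% and 41.1% in the knockouts. Without them the sum was 1558 ± 66.9 in the wild types and 849.7 ± 46.0 in the knockouts (SD, n = 2 each), or 54.5% of wild type. The selenoprotein mRNA pool of the knockouts was therefore spread over more genes. An effective number of genes, the inverse of the summed squared shares, was 3.83 and 3.62 in the wild types and 6.64 and 7.06 in the knockouts. In the wild types 10 and 9 genes held at least 1% of the sum, against 13 in each knockout library.

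**Figure D1:**
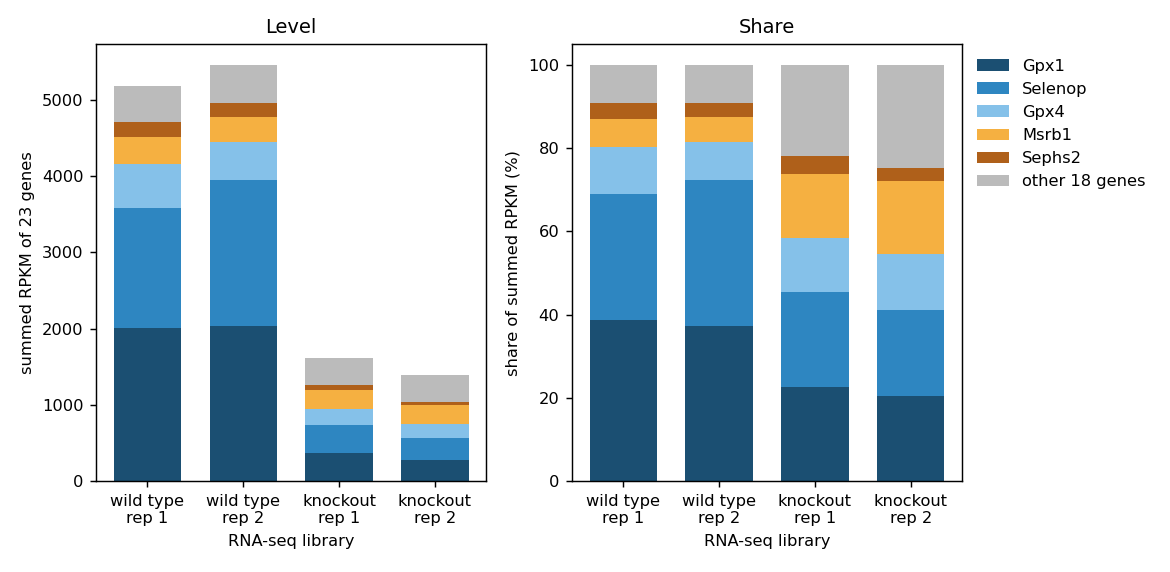
Summed RPKM of the 23 selenoprotein genes (left) and the share of each gene in that sum in percent (right) in the 4 RNA-seq libraries, with the 5 leading wild type genes stacked from the bottom and the other 18 in grey. The knockout bars reach 1616 and 1387 against 5186 and 5459, and Gpx1 with Selenop fill 45.4% and 41.1% of them against 69.0% and 72.3%.

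Of the 23 mRNAs, 20 passed the minimum of a mean of 1 RPKM over all 9 RNA-seq libraries of the series and were tested with limma on log2(RPKM + 0.5), a scale that understates the change of low genes. At a Benjamini-Hochberg adjusted p under 0.05, 10 fell and 4 rose, and 6 did not pass. Since the table holds selenoprotein genes alone, these 14 of 20 are also the background of every count below, at 70% called in either direction, 50% lower and 20% higher. The median log2 change of the 20 mRNAs was -0.39. When each library was rescaled by the median ratio of these same genes, all changes moved up by 0.50 on the log2 scale and the split became 8 lower and 6 higher, so that every direction below holds relative to the authors' mapped reads. Over all 23 genes the knockout libraries lay below both wild types for 11 and above both for 4, which makes 65.2% without overlap.

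**Figure D2:**
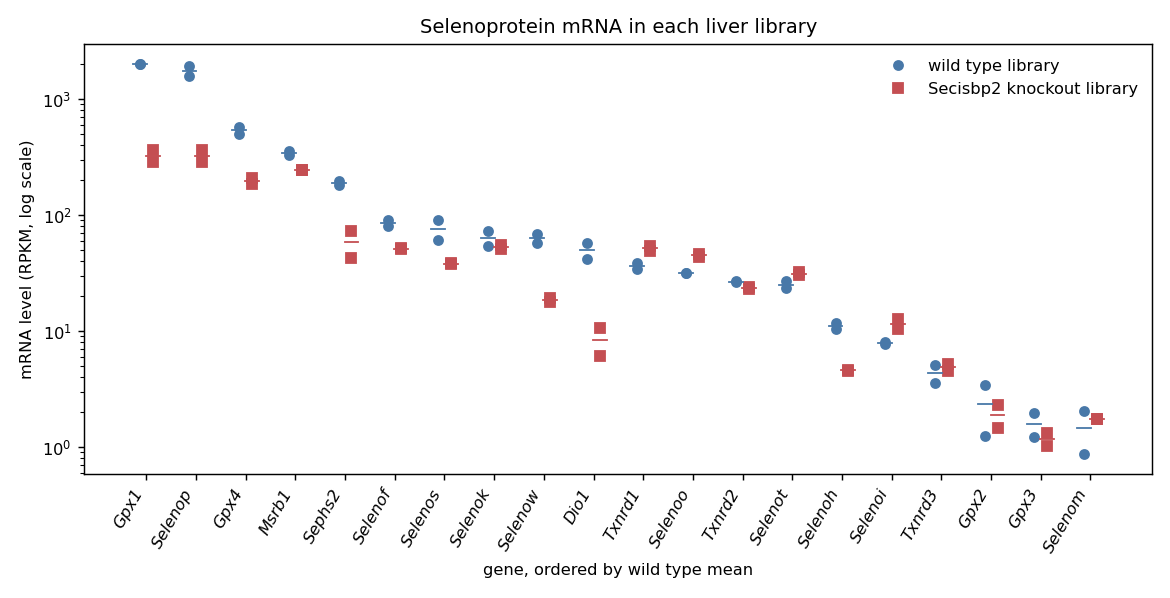
RPKM on a log scale of the 20 tested mRNAs in each library, with wild types as circles, Secisbp2 knockouts as squares and group means as short lines. Gpx1 and Selenop dropped from 1569 to 2030.2 RPKM to between 285 and 367 RPKM, while Txnrd1, Selenoo, Selenot and Selenoi lay higher in both knockouts than in both wild types.

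Among the glutathione peroxidases, which reduce hydrogen peroxide and lipid peroxides, 2 of 4 tested mRNAs fell and none rose, while rescaling by the median ratio moved Gpx2 and Gpx3 to log2 changes of 0.35 and 0.20. Gpx1, the cytosolic enzyme and the most abundant selenoprotein mRNA here, measured 2011 and 2030.2 RPKM in the wild types and 367 and 285 RPKM in the knockouts. Both knockouts lay far under both wild types, a 6.20-fold drop of the mean. The log2 change was -2.64 (SE 0.135, adjusted p = 3.82e-07), the largest fall of the 20. Gpx4, which reduces peroxides of membrane lipids, measured 577 and 501 RPKM in the wild types and 210.2 and 187 RPKM in the knockouts. The log2 change was -1.44 (SE 0.167, adjusted p = 6.28e-05). Its share of the sum moved the other way, from 11.1% and 9.17% to 13.01% and 13.5%. Gpx2, the gastrointestinal enzyme, and Gpx3, the plasma enzyme made mainly in kidney, stayed between 1.02 and 3.44 RPKM with overlapping groups. They rested on 24 and 34 reads for Gpx2 and 12 and 76 for Gpx3 in the wild types. Their log2 changes were -0.16 (95% confidence interval -1.0 to 0.69) and -0.30 (-0.71 to 0.10), neither of which passed the test. Together the family dropped from 2592 and 2534 RPKM to 580 and 475 RPKM, nearly all of it Gpx1 and Gpx4.

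Selenop, the secreted protein that carries selenium from liver to other organs, fell nearly as far as Gpx1. It measured 1569 and 1918 RPKM in the wild types and 366 and 285 RPKM in the knockouts, without overlap. The log2 change was -2.42 (SE 0.164, adjusted p = 1.78e-06). The ratio of Gpx1 to Selenop RPKM was 1.28 and 1.06 in the wild types and 1.00 in both knockouts. Different reads lay behind these near-equal values, 13724 for Gpx1 and 26073 for Selenop in knockout replicate 1 and 11091 and 21111 in replicate 2.

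Sephs2, which makes the selenophosphate that feeds selenocysteine synthesis and is itself a selenoprotein, measured 197 and 183 RPKM in the wild types and 73.4 and 42.7 RPKM in the knockouts. The groups did not overlap, and the knockout libraries differed by 0.78 on the log2 scale, more than for any other tested mRNA in that group. The log2 change was -1.75 (SE 0.222, adjusted p = 1.04e-04). Its rank among the 23 was 5 in both wild types and 5 and 9 in the knockouts.

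Dio1, the deiodinase that converts the prohormone thyroxine to active thyroid hormone in liver, was the only deiodinase tested and fell, with a log2 change of -2.54 (SE 0.252, adjusted p = 2.26e-05). It measured 57.9 and 42.0 RPKM in the wild types and 10.7 and 6.06 RPKM in the knockouts. Both knockouts lay well under both wild types, and the mean dropped 5.96-fold. The rank fell from 10 to 15, the farthest drop of any member. Dio2 and Dio3, deiodinases known mainly from other tissues, lay under the minimum. Dio2 gave 0.0262 to 0.133 RPKM and Dio3 0 to 0.228 RPKM over the 4 libraries. The 0 of Dio3 in wild type replicate 1, the shallowest library, allows up to 0.246 RPKM at a limit of 3 reads, which covers counting error only. Selenon, an endoplasmic reticulum protein known for its role in muscle, was the remaining member under the minimum, at 0.354 to 0.601 RPKM.

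The thioredoxin reductases, which keep thioredoxin reduced, gave 1 rise and no fall among 3 tested mRNAs. Their median log2 change was 0.15 against -0.39 over all tested. Rescaled by the median ratio, Txnrd2 was at 0.33 (adjusted p = 0.0505) and Txnrd3 passed as a rise, at 0.65 (adjusted p = 0.00846). Against the Trsp wild types, which held less of both, Txnrd2 (0.64) and Txnrd3 (0.95) passed as higher (adjusted p = 2.71e-04 each). Txnrd1, the cytosolic enzyme, measured 38.3 and 34.5 RPKM in the wild types and 54.6 and 48.8 RPKM in the knockouts. Both knockouts lay above both wild types, and the log2 change was 0.50 (SE 0.134, adjusted p = 0.00852). Txnrd2, the mitochondrial enzyme, measured 26.3 and 26.8 RPKM in the wild types and 24.0 and 22.9 RPKM in the knockouts. Although its groups did not overlap, the log2 change of -0.18 (95% confidence interval -0.42 to 0.07) did not pass. Txnrd3, best known from testis, overlapped between groups at 3.59 to 5.18 RPKM, with a log2 change of 0.15 (-0.21 to 0.52). The family's summed share rose from 1.34% and 1.19% to 5.14% and 5.54%.

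Msrb1, a reductase of oxidized methionine, changed least among the 5 most abundant members. It measured 357 and 329 RPKM in the wild types and 247 and 245 RPKM in the knockouts, and fell, with a log2 change of -0.48 (SE 0.104, adjusted p = 0.00294), while rescaling by the median ratio moved its change to 0.02. With Gpx1, Selenoh and Selenow it forms the list of mRNAs known to follow the selenium supply, of which all 4 fell (median log2 change -1.45 against -0.39 over all tested). Selenow, a small redox protein first described in muscle, measured 57.3 and 69.0 RPKM in the wild types and 19.4 and 17.8 RPKM in the knockouts, a log2 change of -1.73 (SE 0.122, adjusted p = 1.78e-06). Selenoh, a nuclear protein with a thioredoxin-like fold, measured 11.7 and 10.3 RPKM in the wild types and 4.54 and 4.64 RPKM in the knockouts, a log2 change of -1.17 (SE 0.154, adjusted p = 1.16e-04). The groups of these 3 genes did not overlap. The 4 proteins with a CXXU redox motif, Selenoh, Selenom, Selenot and Selenow, did not move alike: 2 fell, 1 rose and 1 did not pass.

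The housekeeping list, Gpx4, Selenoi, Txnrd1 and Txnrd2, gave 1 lower, 2 higher and 1 without a call (median log2 change 0.16). Where the UGA lies near the normal stop codon, the 6 genes listed gave 1 lower, Selenos, 2 higher, Selenoo and Txnrd1, and 3 that did not pass, with a median of -0.01. Their summed RPKM hardly moved, at 217 and 259 in the wild types and 216 and 217 in the knockouts, while their summed share went from 4.18% and 4.74% to 13.3% and 15.6%.

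Of the 6 tested proteins of the endoplasmic reticulum 2 fell, 2 rose and 2 did not pass. Under the median ratio Selenok was at 0.27 and Selenof, at -0.23, no longer passed (adjusted p = 0.208). Selenom then passed as a rise, at 0.77 (adjusted p = 0.0211). Selenof, a partner of the glycoprotein folding sensor, measured 90.4 and 81.1 RPKM in the wild types and 52.0 and 50.8 RPKM in the knockouts and fell, with a log2 change of -0.73 (SE 0.130, adjusted p = 9.09e-04). Selenos, a membrane protein of the pathway that removes misfolded proteins, measured 60.9 and 89.9 RPKM in the wild types and 37.8 and 38.5 RPKM in the knockouts and fell, at -0.95 (SE 0.170, adjusted p = 9.09e-04). Neither pair of groups overlapped. Selenok, which acts with Selenos at the same membrane, overlapped between groups, at 54.4 and 72.4 RPKM in the wild types and 51.1 and 55.4 RPKM in the knockouts. Its log2 change of -0.24 (95% confidence interval -0.59 to 0.12) did not pass, nor did that of Selenom, 0.27 (-0.39 to 0.93), which rested on 5 and 47 reads in the wild types.

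The other mRNAs that rose were small in amount. Selenoo, a mitochondrial enzyme that attaches AMP to proteins, measured 31.5 and 31.7 RPKM in the wild types and 43.5 and 46.1 RPKM in the knockouts, a log2 change of 0.50 (SE 0.110, adjusted p = 0.00296). Selenoi, an ethanolamine phosphotransferase of phospholipid synthesis, measured 8.06 and 7.74 RPKM in the wild types and 12.6 and 10.4 RPKM in the knockouts, a log2 change of 0.51 (SE 0.144, adjusted p = 0.0107). Against the Trsp wild types this was -0.012 (adjusted p = 0.927), and against both wild type groups pooled 0.19 (adjusted p = 0.425). Selenot, a thioredoxin-like protein of the endoplasmic reticulum, measured 26.8 and 23.61 RPKM in the wild types and 32.3 and 30.3 RPKM in the knockouts, a log2 change of 0.31 (SE 0.116, adjusted p = 0.0371). In each case both knockouts lay above both wild types, by 1.24- to 1.45-fold on the means. Of the 4 rises, only that of Selenoo stayed past the threshold with each library of the series left out in turn. Without knockout replicate 1 the count of rises was 1, with an adjusted p of 0.0592 for Txnrd1, 0.0856 for Selenoi and 0.159 for Selenot. Conversely, without wild type replicate 1 Gpx3, Selenok and Txnrd3 passed, at log2 changes of -0.56, -0.44 and 0.38, and without wild type replicate 2 Gpx2 and Selenom passed, at -0.75 and 0.72.

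**Figure D3:**
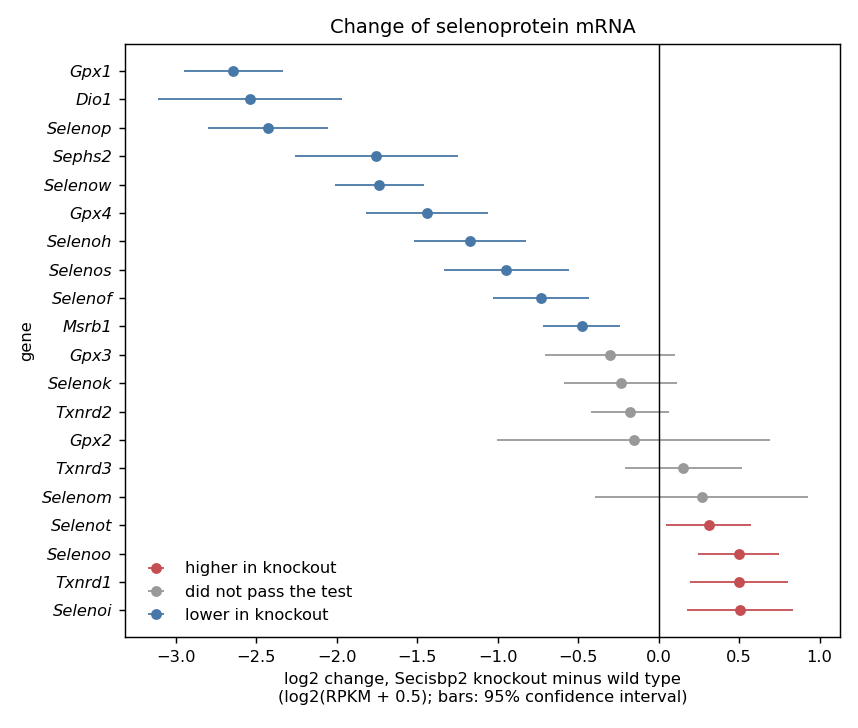
Log2 change of each tested mRNA, Secisbp2 knockout minus wild type, on the log2(RPKM + 0.5) scale with 95% confidence intervals from limma, for 2 libraries a group. The changes run from -2.64 for Gpx1 to 0.51 for Selenoi, with 10 lower, 4 higher and 6 without a call; rescaling by the median ratio would move every point 0.50 to the right, which takes Msrb1 to 0.02.

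Change went with abundance. Of the 10 tested mRNAs with the highest wild type RPKM, 50.0 RPKM and above, 9 fell and none rose, with a median log2 change of -1.59. Of the other 10, at 36.4 RPKM and below, 1 fell, Selenoh, and 4 rose, with a median of 0.21. Across the 20 genes Spearman's rho of the change with the wild type RPKM was -0.67, and with the transcript length implied by the RPKM steps it was 0.46. These are descriptions across genes, which are not independent replicates, and the wild type libraries enter both measures of the first.

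The order of the mRNAs changed most in the middle of the range. Gpx1 and Selenop kept ranks 1 and 2 in all 4 libraries, and Msrb1 and Gpx4 traded places 3 and 4. Txnrd1 climbed from rank 11 to 7, Selenoo from 12 to 9, Selenot from 14 to 11, and Selenok and Selenoi by 2 places each. Dio1 dropped by 5 places, Selenow by 4, Selenos by 3, and Selenof and Selenoh by 2 each. These moves are in the rank of the group mean. Library by library, Selenof ranked 6 and 7 in the wild types and 7 and 6 in the knockouts. Selenok ranked 10 and 8 in the wild types and 8 and 5 in the knockouts, so that both overlapped. The remaining 13 members moved by 1 place or kept their rank, and below rank 17 no member moved by more than 1 place. Neighbours with ranks 1 and 2 in the knockouts did not differ beyond the spread of their replicates.

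**Figure D4:**
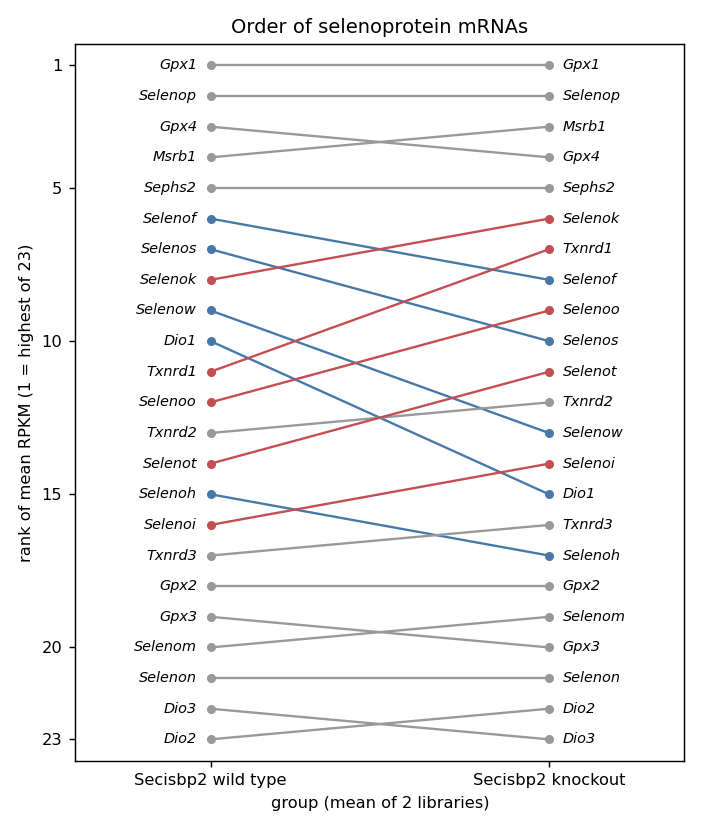
Rank of the mean RPKM of each of the 23 genes in Secisbp2 wild type (left) and Secisbp2 knockout (right), each the mean of 2 libraries. Red lines mark genes that climbed by 2 or more ranks, such as Txnrd1 from 11 to 7, blue lines those that dropped by 2 or more, such as Dio1 from 10 to 15, and grey lines the others. The ranks of Selenof and Selenok in single libraries overlapped between the groups.

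Within the pool the shares sorted the members anew. Tested as log2 of (RPKM + 0.5) over the summed RPKM, 15 of 20 mRNAs rose and 3 fell, or 75% and 15%, with 90% called in all. Only the added 0.5 RPKM ties this measure to the scaling to mapped reads. It lifts low genes where the sum is small, and without the minimum 18 of all 23 genes were called higher. The 3 that lost share were Gpx1, from 38.8% and 37.2% to 22.7% and 20.5% (log2 change -0.81, SE 0.117, adjusted p = 8.92e-05), Selenop, from 30.3% and 35.1% to 22.7% and 20.5% (-0.59, SE 0.127, adjusted p = 0.00145), and Dio1, from 1.12% and 0.770% to 0.663% and 0.437% (-0.71, SE 0.235, adjusted p = 0.0163). The share changes of Sephs2, 0.08 (95% confidence interval -0.34 to 0.49), and Selenow, 0.10 (-0.20 to 0.39), did not pass. Against the Trsp wild types Sephs2 lost share, at -1.01 (adjusted p = 2.07e-04). The call of Dio1 was lost without wild type replicate 1 (-0.44, adjusted p = 0.0831) or knockout replicate 2 (-0.43, adjusted p = 0.136). The gain of Gpx4 (0.39, adjusted p = 0.0373) was lost in 6 of the 9 fits that left out a library.

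Msrb1 gained the most in percentage points, from 6.88% and 6.02% to 15.3% and 17.6%, and so held the third largest share. On the log2 scale the gains were largest for Selenoi, Txnrd1 and Selenoo, each at 2.33, or about 5.0-fold. Txnrd1 went from 0.738% and 0.633% to 3.38% and 3.52%. Shares are tied to each other, so a loss in Gpx1 and Selenop lifts the rest. Among the 21 genes other than those 2, of which 18 were tested, 10 gained and 4 lost share, the latter being Dio1 (log2 change -1.66, adjusted p = 4.18e-04), Sephs2 (-0.88, adjusted p = 0.00488), Selenow (-0.86, adjusted p = 6.36e-04) and Gpx4 (-0.56, adjusted p = 0.00497). Of these, Sephs2, Selenow and Gpx4 had the opposite sign in the share of all 23 genes, as had Selenoh and Selenos, which did not pass here.

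The Trsp knockout removes the selenocysteine transfer RNA in the same cells, and the difference of the 2 knockout effects was tested in the same fit. The comparisons share no library, but the wild types of both colonies differed in 9 of 20 mRNAs (45%), which moves the difference where it occurs. These wild types also came from library sets coded apart. Trsp knockouts and their wild types shared a library set, while the Secisbp2 groups did not. The difference of effects therefore cannot be told apart from the library sets. The effects differed for 14 of 20 mRNAs (70%), 7 with a lower change in the Secisbp2 knockout and 7 with a higher (35% each). For Gpx1, Selenow and Msrb1 the values of the knockouts lay close: their log2 changes were -2.64, -1.73 and -0.48 in the Secisbp2 knockout and -2.76, -1.76 and -0.60 in the Trsp knockout. The differences of 0.12, 0.02 and 0.12 did not pass, with 95% confidence intervals of -0.30 to 0.53, -0.35 to 0.40 and -0.20 to 0.44. The changes of Selenof lay as close, at -0.73 and -0.62, and the difference of -0.11 (-0.51 to 0.29) did not pass. Nor did the differences of Gpx3, -0.30, and Selenom, 0.37. The levels of Selenof lay apart, at 52.0 and 50.8 RPKM in the Secisbp2 knockouts and 101.8 and 98.7 RPKM in the Trsp knockouts. Its wild types differed by -0.85 (adjusted p = 5.62e-04).

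Gpx4 separated the knockouts. Its change was -1.44 in the Secisbp2 knockout and 0.35 in the Trsp knockout, a difference of -1.78 (SE 0.226, adjusted p = 2.07e-04). Its levels were 577 and 501 RPKM in the Secisbp2 wild types, 233 to 329 RPKM in the 3 Trsp wild types and 354 and 338 RPKM in the Trsp knockouts, so that the Secisbp2 wild types stood highest, by 0.98 on the log2 scale over the Trsp wild types. Set against the Trsp wild types, the log2 change of Gpx4 in the Secisbp2 knockout was -0.46 (SE 0.152, adjusted p = 0.0185), and against both wild type groups pooled it was -0.85 and did not pass (adjusted p = 0.0646). Selenop and Dio1 also fell further in the Secisbp2 knockout, by differences of -0.82 (SE 0.222, adjusted p = 0.00985) and -1.37 (SE 0.341, adjusted p = 0.00656).

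In the other direction stood all 3 thioredoxin reductases, with differences of 1.20 for Txnrd1, 0.80 for Txnrd2 and 1.18 for Txnrd3, and Selenok, Selenot, Selenoi and Selenoo. Txnrd1 was at 21.6 and 23.1 RPKM in the Trsp knockouts and at 54.6 and 48.8 RPKM in the Secisbp2 knockouts, while its wild types stood close together, 34.5 to 38.3 RPKM and 32.6 to 40.6 RPKM (difference -0.01 on the log2 scale). Selenok was at 22.8 and 22.5 RPKM in the Trsp knockouts and at 51.1 and 55.4 RPKM in the Secisbp2 knockouts, a difference of the changes of 1.47 (SE 0.209, adjusted p = 3.77e-04). For Selenot the wild types differed by -0.70. Set against the Trsp wild types, Selenot passed as a fall in the Secisbp2 knockout, at -0.39 (adjusted p = 0.00735). The rises of Selenot and Selenoi thus passed only against their own littermates. In a fit of the 4 Secisbp2 libraries alone the rise of Selenot did not pass (0.31, adjusted p = 0.138). The rises of Txnrd1 and Selenoo also passed against the Trsp wild types, at 0.49 and 0.35.

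**Figure D5:**
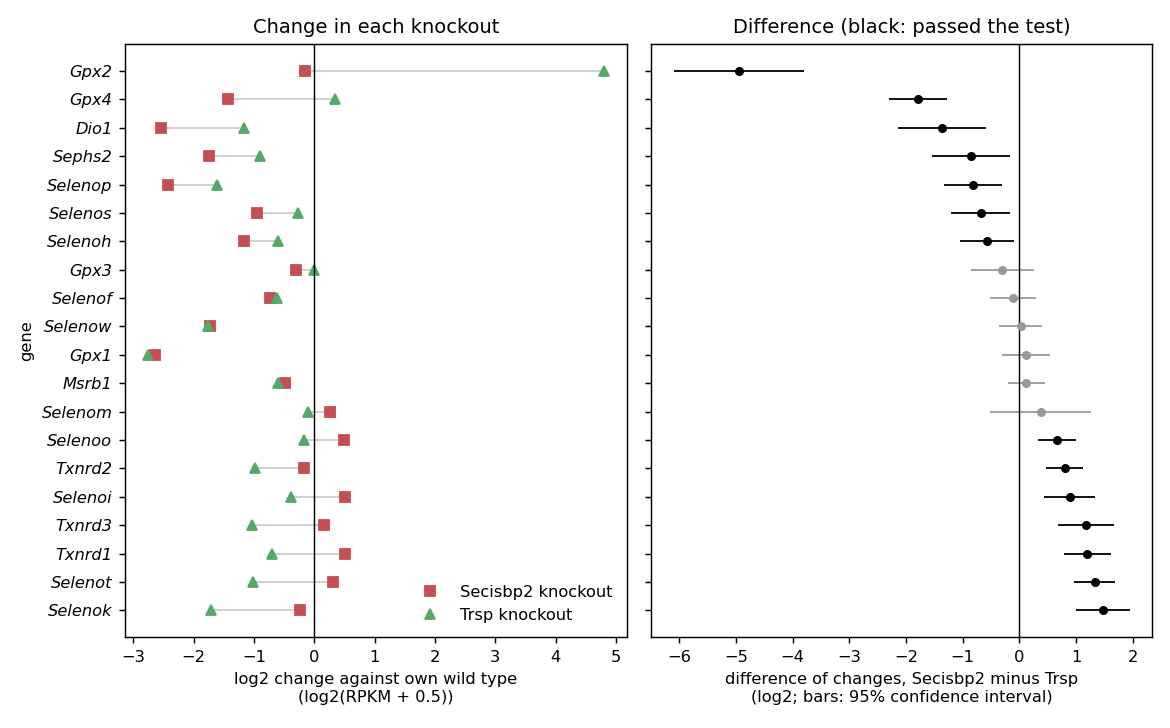
Log2 change of each tested mRNA in the Secisbp2 knockout (squares) and in the Trsp knockout (triangles), each against its own wild type (left), and the difference of the changes with 95% confidence intervals from limma (right, black where the adjusted p was under 0.05). Gpx2 and Gpx4 lie at -4.95 and -1.78, Gpx1, Selenow and Msrb1 between 0.02 and 0.12, and Selenok at 1.47.

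Ribosome footprints upstream of the UGA codon, from libraries of the same groups, followed the mRNA in order. Footprints of 9 of 20 genes fell (45%) and none rose by limma, and Gpx2 (lower) and Selenok (higher) were the other 2 with an unadjusted p under 0.05. Spearman's rho between the mRNA change and the footprint change was 0.80 across the 20 genes. Gpx1 footprints went from 1508 and 1458 RPKM to 135 and 133 RPKM, and Dio1 footprints from 94.0 and 75.7 RPKM to 9.0 and 6.18 RPKM, with both knockouts far under both wild types. The footprint change differed from the mRNA change for 1 gene, Selenot (5% called), whose footprints went from 130.1 and 158 RPKM to 81.7 and 56.9 RPKM while its mRNA rose. The log2 difference was -1.38 (SE 0.362, adjusted p = 0.0464), and it passed in 5 of the 18 fits that left out a library, with adjusted p between 0.00666 and 0.198 over all alternatives. Selenok footprints lay above in both knockouts, 88.8 and 99.1 RPKM against 37.6 and 39.8 RPKM, with mRNA that overlapped between groups, but neither its footprint change (1.27, adjusted p = 0.0772) nor the difference from mRNA (1.50, adjusted p = 0.169) passed. Without Trsp wild type footprint replicate 2 the latter passed (adjusted p = 0.00365).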

How the data were processed

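RNA-seq and ribosome footprints were measured in whole liver. Per the labels' protocols, polyA RNA was fragmented at random, size-selected to 20 to 40 nt, and sequenced as small RNA libraries over 50 cycles. The authors deposited RPKM values, one table for RNA and one for footprints 5' of the UGA, per the file headers. Bowtie 0.12.8 and mm9 are named in the submitters' processing notes. The sources used here do not give how reads were counted, nor how those shared by similar genes were treated. Current symbols came from a RefSeq table of GRCm38.p6, used for names and promoter windows only: 11 by symbol and 12 by synonym.

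Values were tested as log2(RPKM + 0.5) with limma 3.58.1 in R 4.3.3, in 1 fit of 9 RNA-seq libraries in 4 groups, for the 20 genes averaging 1 RPKM or more, two-sided, with Benjamini-Hochberg adjusted p over those 20 and a threshold of 0.05. On 100 simulated tables of 20 genes the Secisbp2 comparison found 99% of 2-fold falls, and unchanged genes were 2.09% of calls. The simulated noise was independent, had the fitted spread and held no difference between library sets. The simulation therefore cannot show how often such a difference gives a call. Rises and smaller changes were not simulated. Sums were tested by exact permutation in Python 3.11.15, and Spearman's rho was computed with scipy 1.17.1. Footprint and mRNA changes were compared as an interaction over both tables. Read numbers were recovered from the RPKM steps and checked on simulated data, where 115 of 115 genes came back exactly. The simulated data were built from the recovered lengths and from depths near the recovered ones. The check therefore cannot show that the assumption about lengths holds for the real libraries. The read numbers rest on the smallest whole reads that fit, and served for depth and for an alternative fit with weights.

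The members, lists and tests were chosen with earlier results of these data known. Every gene of the table is accounted for. The 5 highest in wild type and each gene past the threshold have values per library. Alternatives were other pseudocounts, no minimum, other controls, rescaling, weights, a replicate block and leaving out each library. Whether equal replicate numbers mark paired mice is not stated. The position of selenocysteine was not analysed here.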

Additional observations from a re-analysis of the deposited data

Results flagged for a closer look

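The effect of the Secisbp2 knockout on mRNA differed from that of the Trsp knockout by limma's test of the difference (Benjamini-Hochberg adjusted over 20 genes) for 14 genes. The log2 change was lower in the Secisbp2 knockout by a difference of -4.95 for Gpx2, -1.78 for Gpx4, -1.37 for Dio1, -0.85 for Sephs2, -0.82 for Selenop, -0.68 for Selenos and -0.56 for Selenoh. It was higher by 1.47 for Selenok, 1.33 for Selenot, 1.20 for Txnrd1, 1.18 for Txnrd3, 0.89 for Selenoi, 0.80 for Txnrd2 and 0.67 for Selenoo. The calls of Selenoh, Selenos and Sephs2 did not hold with every library left out in turn, with adjusted p up to 0.098, 0.0756 and 0.105. The value for Gpx2 rests on Trsp wild type libraries with 1, 0 and 2 reads and so depends on the pseudocount. Wild types of the 2 colonies also differed for Gpx2, Gpx4, Dio1, Sephs2, Selenot, Selenoi, Txnrd2 and Txnrd3, and the part of this in the differences was not tested. Library sets coded apart also separated these wild types, and the Secisbp2 groups, and cannot be told apart from the differences. For Selenop, Selenok, Selenoo, Selenos, Selenoh and Txnrd1 the wild types did not differ past the threshold.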

How the results depend on the processing

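Of the 14 mRNA calls, 11 held with each of 9 libraries left out in turn (not Selenoi, Selenot and Txnrd1) and 8 under all 18 alternatives: Gpx1, Selenop, Dio1, Sephs2, Selenow, Selenoh, Selenos and Selenoo. Rises numbered 1 to 5 over the leave-outs and 2 with both wild type groups pooled as control, where the call of Gpx4 was lost as well (log2 change -0.85, adjusted p = 0.0646). The replicate block, a fit in which equal replicate numbers share a term, gave 3 rises and 10 falls, losing Selenot (adjusted p = 0.0546). Deviations of equal-numbered libraries correlated at -0.04 between the Secisbp2 groups, at 0.61 between the knockouts and at -0.44 to -0.0011 between the other groups. With 2 libraries a group this does not settle whether they are paired, and no source states it. The block left 7 and 7 calls for the difference of effects, 15 and 3 for shares, and 1 for footprints against mRNA.

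Directions changed as follows. Without a replicate, Gpx2 ranged from -0.75 to 0.44, Selenom from -0.19 to 0.72 and Txnrd3 from -0.079 to 0.38. With the Trsp wild types as control, Gpx2 was 2.11, Selenoi -0.012, Selenom -0.076, Selenot -0.39 and Txnrd2 0.64. Gpx2, Selenot and Txnrd2 passed there (adjusted p = 3.05e-04, 0.00735 and 2.71e-04), while Selenoi and Selenom did not. Under that control 5 mRNAs were called higher and 12 lower. Selenok (-0.49) and Txnrd3 (0.95) passed without a change of direction. With pooled wild types, Gpx2 was 1.21, Selenot -0.11 and Txnrd2 0.31. Rescaled to the median ratio, Gpx2 was 0.35, Gpx3 0.20, Msrb1 0.024, Selenok 0.27 and Txnrd2 0.33. With weights from reads, Selenom was -0.054. Shares among 21 genes were -0.56 for Gpx4, -0.30 for Selenoh, -0.071 for Selenos, -0.86 for Selenow and -0.88 for Sephs2. The share change of Sephs2 was -1.01 with the Trsp wild types as control and ranged from -0.20 to 0.35 without a replicate. Differences of effects ranged without a replicate from -0.067 to 0.30 for Gpx1 and from -0.11 to 0.16 for Selenow, which was -0.037 rescaled, and the wild type difference of Txnrd1 from -0.097 to 0.060.

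Lower differences of effects numbered 4 to 7 over the leave-outs and lower wild type differences 5 to 8. For footprints against mRNA, leave-outs gave 0 to 2 lower and 0 to 1 higher, and a pseudocount of 0.1 gave 0. The cause of these changes was not tested. Gpx2, Gpx3 and Selenom rest on 5 to 90 reads in each Secisbp2 library, which limits them. In the Trsp wild types, which enter the values against other controls, Gpx2 had 1, 0 and 2 reads.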

Other observations

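The ratio of Gpx1 to Selenop RPKM was 1.00 in both Secisbp2 knockout libraries, although their levels differed (367 and 285 RPKM for Gpx1). It was 0.429 and 0.470 in the Trsp knockout libraries and 0.963 to 1.28 in the 5 wild type libraries. Gpx1 itself was at 298 and 316 RPKM in the Trsp knockouts, within the range of the Secisbp2 knockouts, while Selenop was at 696 and 673 RPKM against 366 and 285 RPKM. Their share of the summed RPKM was nevertheless close in both knockouts, 45.4% and 41.1% in the Secisbp2 knockouts and 44.2% and 45.3% in the Trsp knockouts. The summed RPKM of all 23 genes was 2217 ± 46.1 (SD, n = 2) in the Trsp knockouts.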
